A study of Homo sapiens with 2 samples.

Results

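The replication-dependent histone genes of chromosome 6 form the largest histone gene cluster of the human genome, and their CpG methylation was compared between a DMSO control library and a Mdivi-1 library of SH-SY5Y cells. Members were the genes whose symbol starts with HIST1, H1-, H2AC, H2BC, H3C or H4C at positions annotated to them, as promoter or gene, between 26 and 28 Mb of chromosome 6 in hg19, with at least 10 reads in both libraries and at least 5 such CpGs. This rule uses no methylation value. It found 53 genes among the 27303 genes measured the same way across the table. The members comprised 6 linker histone genes (H1), 11 H2A, 14 H2B, 10 H3 and 12 H4 genes, and all 53 symbols with an annotated position passed the minimum of 5 CpGs. They held 2426 CpGs, from 23 to 182 per gene with a median of 57. Of these CpGs, 917 (37.8%) were annotated to more than 1 member, so neighbouring members are not independent of each other. CpGs were counted by position. Adjacent positions, as 26020796 and 26020797 in the exon of H3C1, count separately, although a CpG site has a cytosine on each strand. Counts of CpGs can therefore exceed counts of sites, in some exons more than in others. The genes lay in 3 blocks, with 32 genes over 270 kb (26016460 to 26286770), 5 genes over 16.5 kb (27099629 to 27116114) and 16 genes over 88.1 kb (27774797 to 27862922). No HIST1 symbol and no histone pseudogene met the rule.

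Core histones H2A, H2B, H3 and H4 form the protein spool of the nucleosome, and H1 linker histones bind the DNA where it enters and leaves that spool. Replication-dependent histone genes are small, mostly lack introns, are transcribed in S phase, and give messages that end in a stem-loop in place of a poly(A) tail. Many copies encode the same or nearly the same protein, H2A and H2B genes often stand head to head over a shared promoter, and testis-specific forms such as H1-6 (H1t) are silent in most other cells. CpG methylation at the promoter and first exon of such short genes is usually absent where the gene is in use.

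SH-SY5Y is a human neuroblastoma cell line, and Mdivi-1 is a small molecule described as an inhibitor of the mitochondrial fission GTPase DRP1. The control group was 1 library from cells given the solvent DMSO, and the treated group was 1 library from cells given Mdivi-1. The sources used here give neither dose nor exposure time, the RNA-seq named in the design is not analysed here, and methylation does not show which histone genes were transcribed. With 1 library per group no difference below has a replicate check, and each comparison is between these libraries rather than between the conditions.

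Methyl capture with bisulfite conversion covered 2523693 CpGs by at least 10 reads in each library, at mean coverages of 39.7 reads in control and 49.1 in Mdivi-1. The members had mean coverages from 22.8 to 53.6 reads in control and from 27.3 to 73.3 in Mdivi-1. Over the whole table the mean methylation level was 42.6% in control and 43.1% in Mdivi-1, a difference of 0.460 percentage points. Of 10 adrenergic neuroblastoma marker genes, 7 had promoters under 20% in both libraries, against 3 of 6 mesenchymal, 1 of 4 epithelial and 1 of the 2 blood markers measured. Promoter methylation is not expression, so these counts only describe the libraries.

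RefSeq promoters of GRCh38.p14, spanning 250 bases before to 50 bases after the start, were found for 48 of the 53 members, and H2AC12, H3C11, H3C12, H4C1 and H4C3 had none. The letters TATAA, searched on both strands, occurred in 47 of the 48 (97.9%) against 20.4% of 35116 promoters of all genes, and H1-2 was the member without them. CCAAT occurred in 41 members (85.4%, all genes 34.6%), but in only 3 of 10 H4 promoters. The octamer ATTTGCAT, recognised by Oct-1, occurred in 20 members (41.7%, all genes 1.77%), namely in 11 of 14 H2B, 8 of 10 H2A and 1 of 8 H3 promoters and in no H1 or H4 promoter. That H3 promoter belongs to H3C4, whose first listed entry is the same 300 bases as that of H2AC7. AAACACA, the H1 box, occurred in 6 of 6 linker promoters and in none of the other members (all genes 5.64%). Matches of these 4 motifs overlapped each other in 0 of the 48 promoters. A match describes letters and not a bound site.

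The linker and H4 promoters shown next set members with methylated CpGs beside members of the same family without. All CG letters are in capitals, whether or not the CpG was measured. Window positions are in GRCh38.p14 and were not joined to the hg19 positions of measured CpGs, so these coordinates cannot be compared directly. H1-1, at chr6:26017738-26018037 (minus strand), and H1-6, at chr6:26108086-26108385 (minus strand), belonged to the methylated genes, and H1-4, at chr6:26156079-26156378 (plus strand), to the unmethylated ones.
H1-1: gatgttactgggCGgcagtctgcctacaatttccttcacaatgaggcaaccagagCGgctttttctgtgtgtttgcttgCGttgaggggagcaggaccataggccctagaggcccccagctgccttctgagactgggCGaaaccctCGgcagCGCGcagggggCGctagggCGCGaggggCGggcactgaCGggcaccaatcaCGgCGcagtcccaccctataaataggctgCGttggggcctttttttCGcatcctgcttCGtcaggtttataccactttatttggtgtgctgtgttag
H1-6: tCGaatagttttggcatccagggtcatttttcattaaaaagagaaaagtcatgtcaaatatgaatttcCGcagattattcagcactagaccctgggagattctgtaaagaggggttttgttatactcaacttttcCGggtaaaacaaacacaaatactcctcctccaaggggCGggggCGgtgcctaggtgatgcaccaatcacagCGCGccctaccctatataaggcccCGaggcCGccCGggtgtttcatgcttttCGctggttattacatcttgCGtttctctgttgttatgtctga
H1-4: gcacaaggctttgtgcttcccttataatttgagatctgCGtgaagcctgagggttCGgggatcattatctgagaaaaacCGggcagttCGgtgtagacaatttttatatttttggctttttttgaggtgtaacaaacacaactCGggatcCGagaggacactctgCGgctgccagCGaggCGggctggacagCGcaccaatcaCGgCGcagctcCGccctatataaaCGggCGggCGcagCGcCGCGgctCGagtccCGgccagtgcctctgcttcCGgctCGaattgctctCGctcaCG
H4C6, at chr6:26240143-26240442 (plus strand), and H4C7, at chr6:26246947-26247246 (minus strand), were methylated H4 genes, and H4C5, at chr6:26204360-26204659 (plus strand), was an unmethylated one.
H4C6: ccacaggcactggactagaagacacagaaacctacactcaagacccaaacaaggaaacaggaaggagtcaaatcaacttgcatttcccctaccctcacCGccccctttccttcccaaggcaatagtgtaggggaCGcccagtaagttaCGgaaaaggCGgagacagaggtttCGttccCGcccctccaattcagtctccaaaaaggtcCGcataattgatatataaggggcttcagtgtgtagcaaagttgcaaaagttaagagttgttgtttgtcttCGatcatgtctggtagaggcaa
H4C7: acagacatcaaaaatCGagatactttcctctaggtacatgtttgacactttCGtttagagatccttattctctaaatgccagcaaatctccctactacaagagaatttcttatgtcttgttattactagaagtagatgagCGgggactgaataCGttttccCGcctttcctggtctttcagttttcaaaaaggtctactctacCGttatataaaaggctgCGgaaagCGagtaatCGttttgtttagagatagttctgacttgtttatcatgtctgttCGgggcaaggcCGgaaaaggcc
H4C5: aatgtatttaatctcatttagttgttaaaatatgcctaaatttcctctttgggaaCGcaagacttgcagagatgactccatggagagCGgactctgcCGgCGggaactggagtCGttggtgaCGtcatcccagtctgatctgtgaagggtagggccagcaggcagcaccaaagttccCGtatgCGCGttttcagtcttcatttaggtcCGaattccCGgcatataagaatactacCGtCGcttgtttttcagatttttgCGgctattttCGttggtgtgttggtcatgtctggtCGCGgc
H3C1, at chr6:26020201-26020500 (plus strand), is the H3 gene that shares promoter CpGs with H1-1.
H3C1: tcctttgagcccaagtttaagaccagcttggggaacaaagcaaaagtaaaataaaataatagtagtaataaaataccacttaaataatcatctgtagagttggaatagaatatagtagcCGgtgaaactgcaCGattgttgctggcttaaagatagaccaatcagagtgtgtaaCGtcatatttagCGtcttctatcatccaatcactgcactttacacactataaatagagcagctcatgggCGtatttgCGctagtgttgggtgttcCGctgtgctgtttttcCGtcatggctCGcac
These windows held 17 CG in H1-1 and 12 in H1-6 against 25 in H1-4, and 8 in H4C6 and 11 in H4C7 against 17 in H4C5. Across the 4 methylated members the number ran from 8 to 17 with a median of 11.5, inside the range of the 44 other members, 3 to 25 with a median of 9. The promoters of all genes had a median of 14. TATAA was found in all 7 windows shown, so those letters did not separate the methylated from the unmethylated members.

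Most members were almost free of methylation in both libraries, and a small set was almost fully methylated. A level under 10% in both libraries was found for 45 of 53 members (84.9%) against 14.8% of all genes, and the median member had 2.54% in control and 2.34% in Mdivi-1. All genes had medians of 33.5% and 33.9%. Levels over 80% in both libraries were found for 4 members, and the other 4 lay between. The family medians in control were 1.21% for H2A, 1.47% for H2B, 2.72% for H3, 4.28% for H1 and 6.13% for H4. The lowest members were H2AC7, an H2A gene, with 0.680% and 0.846% in control and Mdivi-1, H3C10 with 0.768% and 0.774%, H2BC7 with 0.822% and 0.952%, H2BC11 with 1.05% and 1.02%, and H2BC4 with 0.968% and 1.13%. All 5 lay between 0.680% and 1.13%, and their order was not tested. At the level of single CpGs, 83.3% of the cluster's CpGs were under 10% in both libraries (40.1% in the whole table), 34% had no methylated read in either, and 2.18% lay between 20% and 80% in both (16.8% in the whole table).

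**Figure D1:**
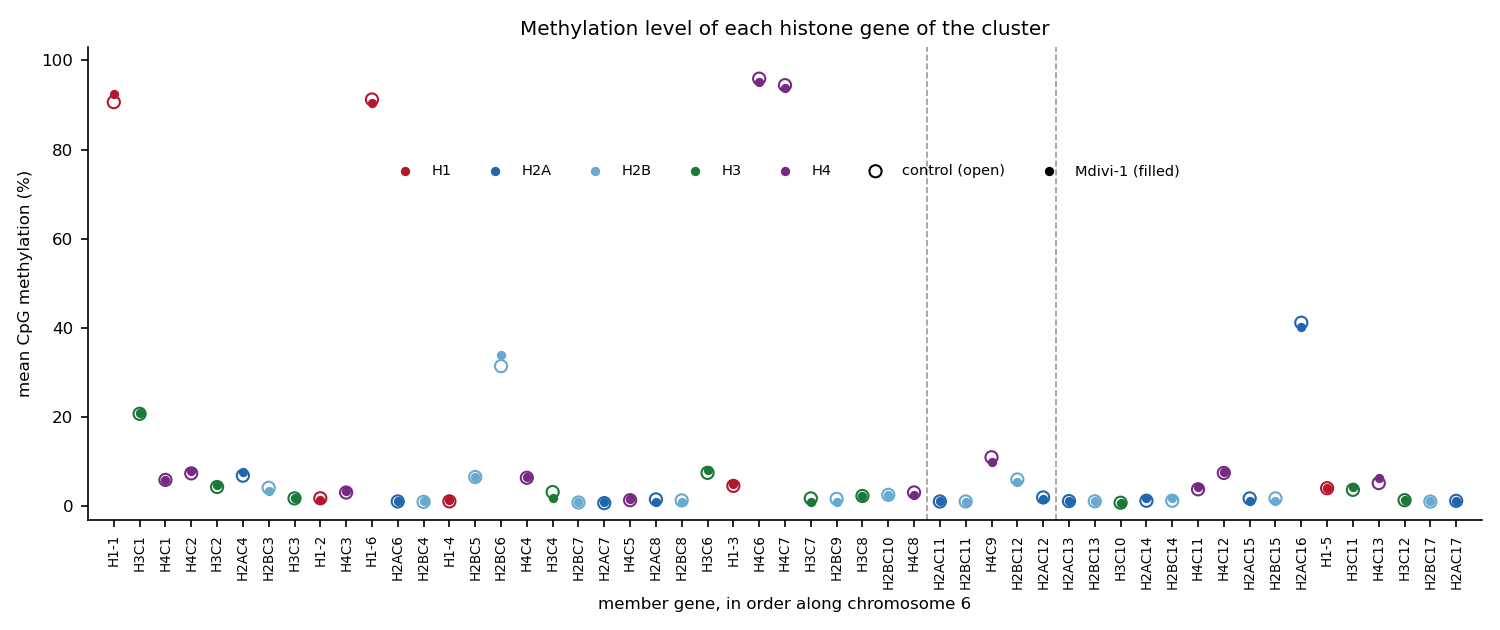
Mean CpG methylation in percent (vertical axis) of the 53 members in their order along chromosome 6 (horizontal axis), coloured by family, with control as open and Mdivi-1 as filled circles and dashed lines between the 3 blocks. H1-1, H1-6, H4C6 and H4C7 sit above 90%, H2AC16, H2BC6, H3C1 and H4C9 lie between, and the open and filled circles of each gene nearly coincide.

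The 4 methylated members were 2 linker and 2 H4 genes, all in the first block. H4C6, an H4 gene formerly named HIST1H4F whose methylation has been described across tumour types, had 95.9% in control and 95.2% in Mdivi-1 over 51 CpGs. H4C7, which encodes a divergent H4 protein, had 94.4% and 93.7% over 43 CpGs. H1-6, the testis linker histone, had 91.2% and 90.5% over 30 CpGs, and H1-1, a linker histone of restricted expression, had 90.6% and 92.4% over 106 CpGs. Methylation covered their coding exons and most of their flanks, with 79.7% in control and 87.0% in Mdivi-1 at the 7 farther promoter CpGs of H1-1. In the exons the 4 genes ran from 91.3% to 97.5% in control and from 90.2% to 96.0% in Mdivi-1. Of 951 CpGs of members in CpG islands, 61 were over 80% in both libraries, all of them in H4C6 or H4C7, and none lay between 20% and 80%. H1-1 and H1-6 had no CpG in an annotated island. Of the 11 members without an island CpG, 8 were under 10%.

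The methylated genes were neighbours of unmethylated ones. H4C6 and H4C7 lay together within 7664 bp, from 26240292 to 26247956, after H1-3 (4.55% in control, 4.91% in Mdivi-1), whose CpGs ended 4592 bp before, and were followed after 2326 bp by H2BC9 and H3C7, both under 2%. An intergenic CpG at 26237622, between H1-3 and H4C6, had 94.9% in control and 95.1% in Mdivi-1, and one at 26242930, between H4C6 and H4C7, had 81.8% and 86.0%. H1-6 spanned 1441 bp, between H4C3 (3.06% and 3.43%), 2957 bp away, and H2AC6 (1.06% and 1.27%), 14150 bp away. The one intergenic CpG measured in that last gap, at 26120729, had 94.9% and 96.9%.

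**Figure D2:**
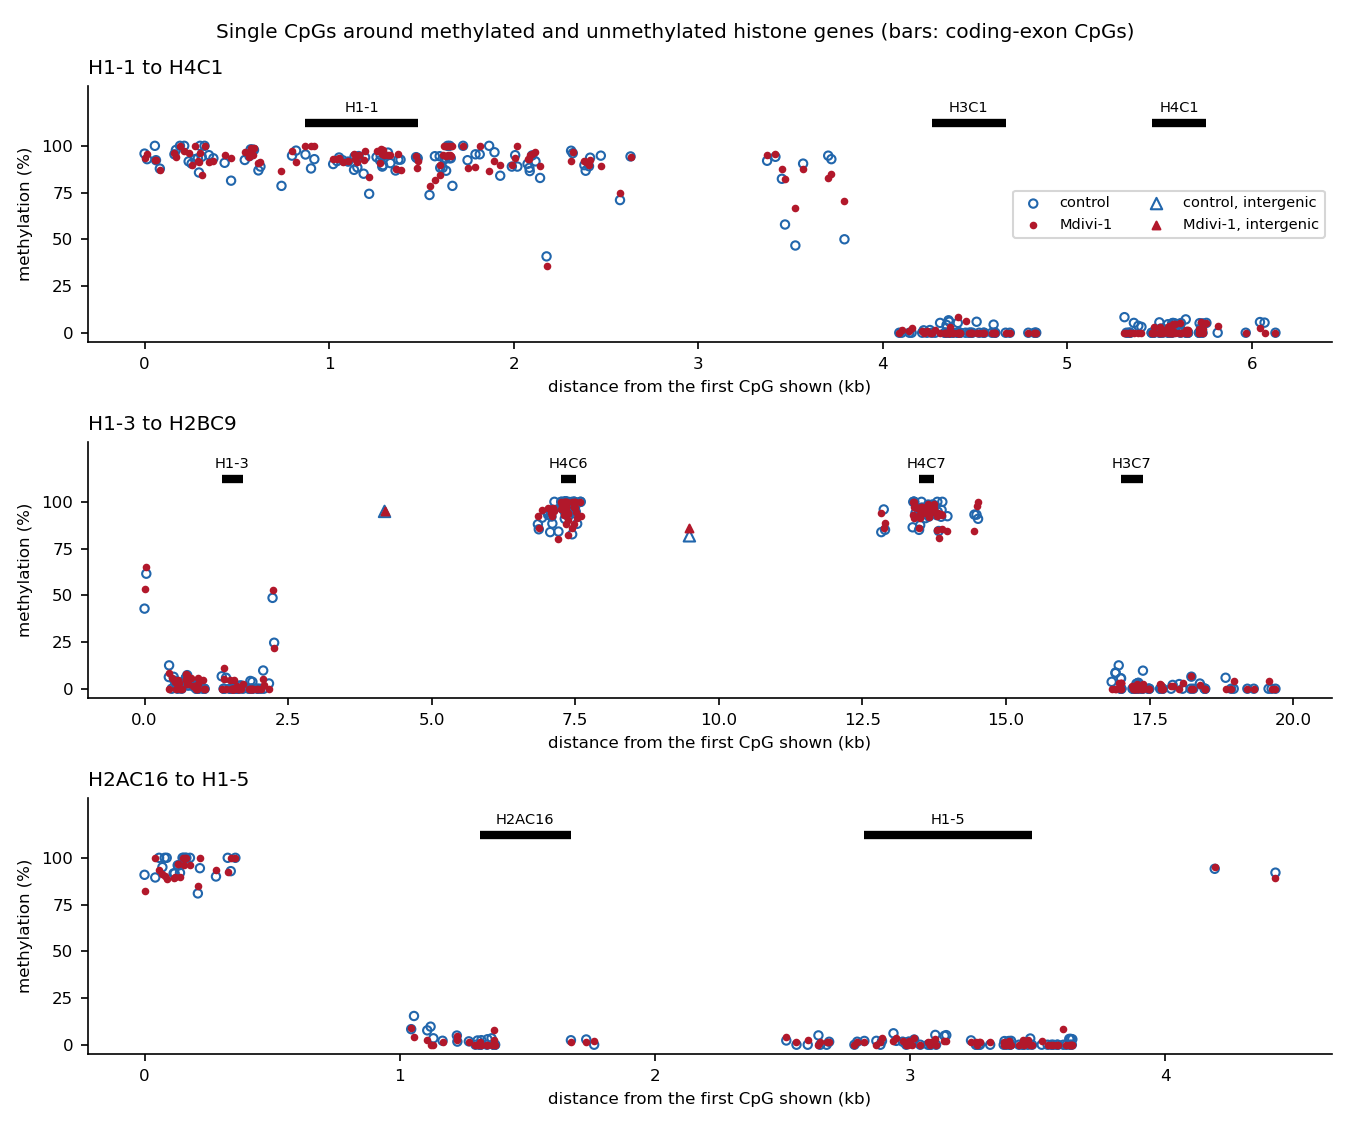
Methylation in percent (vertical axis) of single CpGs against distance in kb from the first CpG shown (horizontal axis) in 3 stretches, with control as open blue and Mdivi-1 as filled red symbols, triangles for intergenic CpGs and black bars over coding-exon CpGs. The coding exons of H1-1, H4C6 and H4C7 are high and those of H3C1, H4C1, H1-3, H3C7 and H1-5 are low in both libraries, while single flank CpGs depart from this, as at 26018638 before H1-1 (40.8% and 35.5%) and at 27836019 before H1-5 (94.1% and 95%).

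Of the 4 members of intermediate mean level, the 3 with measured exonic CpGs were low at their exons. H3C1, an H3 gene, had 20.7% in control and 20.9% in Mdivi-1 over all its CpGs. Its exon had 1.01% and 0.512% over 37 CpG positions, a number of them adjacent and so of the same site. Its methylated CpGs were on the side of H1-1: at 26020252 the level was 50% and 70.6%, and 297 bp on, at 26020549, it was 0% in both libraries. H2AC16, an H2A gene, had 41.2% and 40.1% over all CpGs and 1.02% and 1.15% over 11 exonic CpGs. There the level went from 100% in both libraries at 27832181 to 8.33% and 9.09% at 27832870, 689 bp on. H4C9, an H4 gene, had 11.0% and 9.98% over all CpGs and 0.454% and 0.300% over 22 exonic CpGs. H2BC6, an H2B gene, had 31.4% and 34%, all from 23 upstream CpGs, as no exonic CpG of it was measured. Along the sequence its level went from 91.7% and 93.6% at 26183231 to 33.3% and 42.9% at 26183330, only 99 bp away. From there to 26183693 its CpGs ran from 0% to 38.2% in control and from 9.38% to 47.4% in Mdivi-1, so much of its measured flank was itself intermediate.

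The same pattern held as a group over the other members with measured exonic CpGs. Outside the 4 methylated genes, coding exons had a mean of 1.42% in both libraries over 885 CpGs of 44 genes. Among the 34 of these genes with at least 5 exonic CpGs, the highest exon was at 3.20% in control (H2BC12) and at 3.82% in Mdivi-1 (H3C6). Exons with fewer CpGs held exceptions, with 17.7% and 17.2% over the 4 exonic CpGs of H2BC10, 1 of which was over 50% in both libraries, and 11.8% and 11.1% at the only exonic CpG of H2BC3. Distance was taken from the nearest measured exonic CpG of any member to which a CpG was annotated. Levels were higher farther away. They were 1.54% in control and 1.47% in Mdivi-1 within 250 bp, and 3.49% and 3.66% beyond that up to 500 bp. Up to 1000 bp they were 9.98% and 9.61%, and up to 2500 bp 21.6% and 21.9%. The medians stayed at 1.49% and 1.75% even in the last bin, so a minority of flanks carried the increase. CpGs annotated only to H2B genes without a measured exonic CpG are in no bin. These include the CpGs of H2BC6 and the 41 intronic CpGs of H2BC5, with 25.5% in control and 25.6% in Mdivi-1. H2BC11, H2BC13 and H2BC15, which also lack one, had gene means of 1.05%, 1.09% and 1.74% in control. Of the 49 members not over 80%, 19 had at least 1 CpG over 50% in both libraries outside their own exon. There were 83 such CpGs in all, which is not the content of the bins. They include 10 CpGs of H2BC5 and 5 of H2BC6, which are in no bin, and CpGs that H3C1 and H4C1 share with H1-1. The CpG at 26273557, exonic in H2BC10, counts here through the promoter of H3C8. Members differed in how well their exons were covered, with a median of 1 exonic CpG in H2B genes (5 of 14 had none), 11 in H2A, 29.5 in H4, 30 in H3 and 31 in H1 genes. Exonic CpGs of the whole table had a mean of 59.6% in control, and of 49.7% within islands. The cluster's island exons, methylated members included, had 9.39%.

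**Figure D3:**
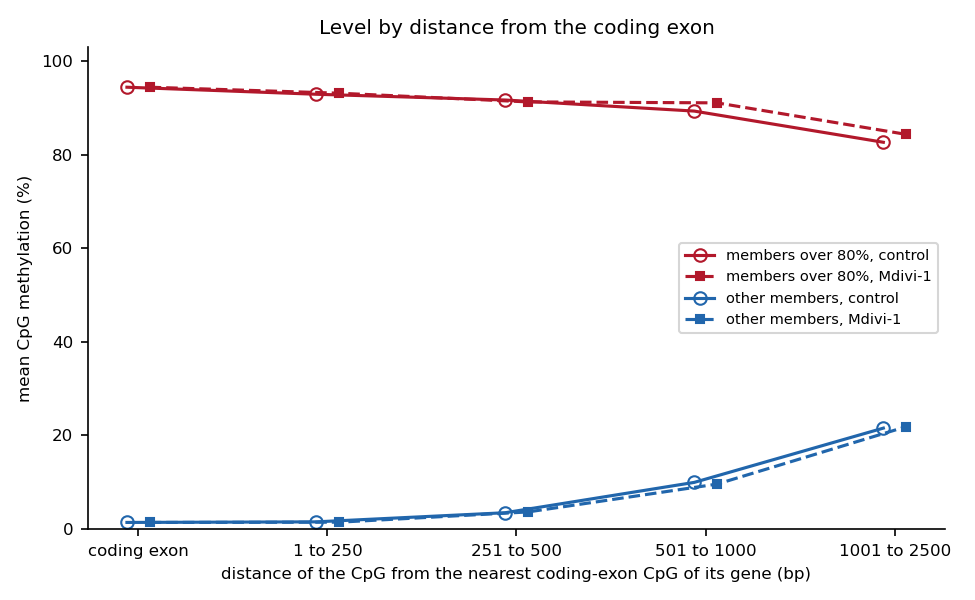
Mean CpG methylation in percent (vertical axis) by distance in bp from the nearest measured exonic CpG of any member to which the CpG is annotated (horizontal axis). The 4 members over 80% are red and the other members blue, with control as open circles and Mdivi-1 as filled squares. The other members go from 1.42% in the exon to 21.6% in control in the farthest bin. The methylated members have bin means above 80%, with only 2 CpGs of H1-1 in the farthest bin. CpGs that H1-1 shares with H3C1 at 26019833 to 26020028 are placed by distance from the exon of H3C1.

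Between the libraries the cluster as a whole hardly differed. The mean over its 2426 CpGs was 13.1% in control and 13.2% in Mdivi-1, a difference (Mdivi-1 minus control, as throughout) of 0.0372 percentage points (counting error 0.0785, 95% interval −0.117 to 0.191). That error takes CpGs as independent, and since 1 read can cover several CpGs the true counting error is larger. The 1337 promoter CpGs had 10.4% and 10.5%, a difference of 0.0830 points (error 0.105), and the 1089 gene body CpGs had 16.5% in both, a difference of −0.0190 points (error 0.119). Without the methylated members the level was 4.80% in both libraries. The methylated members had 92.6% and 93.0%, a difference of 0.401 points (error 0.394). Pooling reads instead of averaging CpGs gave a cluster difference of 0.572 points, and 0.0639 points without the methylated members. The gene body difference was 1.15 points with pooled reads, of the opposite sign. The Mdivi-1 to control ratio of mean coverage had a median of 1.40 in those members and 1.26 in the others. Single CpGs of the cluster differed by a root mean square of 3.72 points, where counting alone gives 3.87, and those of the whole table by 7.41 points, where counting gives 7.17.

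No single CpG of the cluster was called. By Fisher's exact test, two-sided and adjusted over all CpGs of the table by Benjamini-Hochberg, 0 of 2426 CpGs had an adjusted p under 0.05 with at least 20 points of difference, where 0.000634% of the table's CpGs did. With the adjusted p alone the count was 0 as well, against 0.000792% of the table. With shares that low, a count of 0 among 2426 CpGs does not set the cluster apart. The smallest adjusted p of a member CpG was 1. Before adjustment 9 CpGs (0.371%) had a p under 0.05 against 2.02% of the table, where a smaller share of CpGs, 40.1% against 83.3%, was under 10% in both libraries, and the part of level in that gap was not tested. By unadjusted p, 3 of the first 5 CpGs lay after H3C4, an H3 gene. At 26196564 the level was 48.3% in control (14 of 29 reads) and 17.5% in Mdivi-1 (7 of 40), with an unadjusted Fisher exact p of 0.0084. Nearby CpGs at 26196547 (22.7% and 2.70%, exact p 0.023) and at 26196629 (21.6% and 4.88%, exact p 0.041) were lower in Mdivi-1 too, but the CpG between them at 26196581 was higher, with 10% and 22.0%. Reads may be shared among these CpGs. The CpGs at 26016929 after H1-1 (81.4% and 93.3%, exact p 0.034) and at 26226012 after H3C6 (16% and 5.13%, exact p 0.035) completed the 5 of smallest p. All 5 lay downstream of a gene and outside a CpG island, and none passed the adjusted threshold.

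Gene means gave no call either. The rule of size was a mean difference of at least 10 points with 80% of CpGs in its direction. No member met it, and 0.132% of all genes did. At 5 points no member met it either, and 0.996% of all genes did. With shares that low, counts of 0 among 53 members do not set the cluster apart. The 53 differences ran from −1.34 to 2.60 points, 30 above and 23 below 0, with a median of 0.0582 points against 0.353 points over all genes. Outside the 95% counting interval for independent CpGs were 5 members (9.43%, against 17.7% of all genes): H3C4, H1-1, H4C13, H3C11 and H3C7. All 61 CpGs of H4C13 were also annotated to H3C11, so these genes are not separate observations. A wider interval took each gene as a single CpG at its mean level and mean coverage. Where the CpGs of a gene differ in level, it is wider than fully shared reads would give. No member was outside it, and neither was any other gene of the table, so it could not single out any gene.

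**Figure D4:**
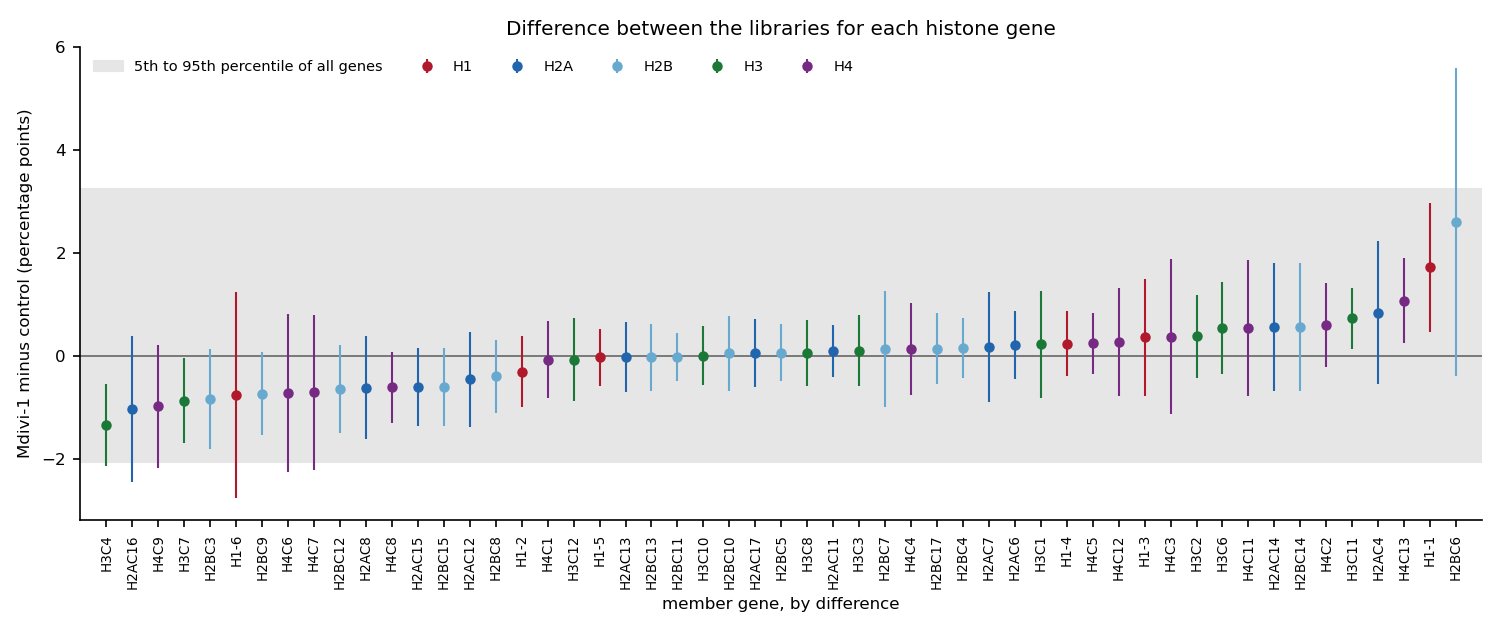
Difference between the libraries in percentage points (vertical axis) for the 53 members ordered by it (horizontal axis), coloured by family, with bars for the 95% counting interval of independent CpGs and a grey band from the 5th to the 95th percentile of all genes. Every member lies within the band, from H3C4 at −1.34 to H2BC6 at 2.60 points.

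The largest gains were small, and not all sat in flanks. H2BC6, measured at upstream CpGs alone, had 31.4% in control and 34% in Mdivi-1, a difference of 2.60 points (error 1.52). H1-1 had 90.6% and 92.4%, a difference of 1.72 points (error 0.637), and its exon had 91.3% and 93.8%. H4C13, an H4 gene, differed by 1.07 points (error 0.421), with 15.4% and 18.6% upstream and 0.977% and 0.948% in the exon. Among the other gains H2AC4 differed by 0.838, H3C11, which holds all 61 CpGs of H4C13, by 0.731, and H4C2 by 0.60 points. H2AC14 and H2BC14, a head-to-head pair annotated to the same 29 CpGs, differed by 0.565 points. Among the losses H3C4 differed by −1.34 points (error 0.407), with 8.13% and 4.64% downstream, where its 3 CpGs of smallest p lie, and 1.54% and 0.708% in the exon. H2AC16 differed by −1.04, H4C9 by −0.982, H3C7 by −0.869, H2BC3 by −0.840, H1-6 by −0.761, H2BC9 by −0.735 and H4C6 by −0.722 points. All 49 CpGs of H3C7 were also annotated to H2BC9. The sign turned for H4C6, to 1.30 points with a minimum of 20 reads and 0.421 with pooled reads, and for H4C2, to −0.441 points with pooled reads. No gain or loss had a gene's exon change state between methylated and unmethylated.

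Among the linker histones the somatic genes other than H1-1 were low. H1-2, H1-3, H1-4 and H1-5 encode the common somatic linkers. H1-2 had 1.77% in control and 1.47% in Mdivi-1, H1-3 had 4.55% and 4.91%, H1-4 had 1.07% and 1.30%, and H1-5 had 4.02% and 3.99%. In H1-3 and H1-5 a few flank CpGs carried the level, as their exons had 0.840% and 1.29% in control. The linker family thus held genes at both ends of the range, with H1-1 and H1-6 over 90%.

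Most pairs of members with shared promoter CpGs were less than 30 points apart. Most pairs of any members would be too, as 45 of 53 were under 10% in both libraries. Promoter CpGs were shared by 23 pairs of members, involving 36 genes, and 2 pairs were at least 30 points apart, both with H1-1. H1-1 shared 15 promoter CpGs with H3C1, whose levels differed from it by 70.7 points averaged over the libraries, and 4 with H4C1 (5.89% in control, 5.81% in Mdivi-1), 85.6 points apart. Of the 17 upstream and 9 farther promoter CpGs of H3C1, the farther ones, nearest to H1-1, had 90.3% and 90.2%. Shared CpGs make likeness within the other pairs partly a matter of annotation.

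Histone genes outside the window were measured by the same rule. The germline core histone genes H2AC1 and H2BC1, just outside it on chromosome 6, had 81.5% and 83%, and 81.8% and 83.2%, in control and Mdivi-1. Of 8 replication-dependent genes measured on other chromosomes, 6 were under 10% in both libraries and only H3-4, a testis H3 gene, was over 80% (92.3% and 93.5%). Replacement variants, which are made outside S phase, had 5 of 15 under 10% and 2 over 80% in both libraries. Their largest differences were H2BW1 with 3.0, H1-7 with 2.90 and H3-5 with 1.68 points, and the last, over 90% in both libraries, is a testis H3. Genes for transcribing and processing histone messages had 3 of 21 under 10%, with CSTF2, of the cleavage complex, at −2.49, HINFP, an H4 transcription factor, at 0.937, and SLBP, the stem-loop binding protein, at −0.841 points. Histone chaperones had 5 of 19 under 10%, with CHAF1B, a subunit of the replication chaperone CAF-1, at 2.94 points, HJURP at 1.13 and NAP1L4 at 0.767 points. The 94 other genes of the window, 61 of them tRNA genes, had 33 under 10% and 5 over 80% and a median difference of 0.202 points. Some were measured on CpGs of members, as TRX-CAT1-2 on the same 90 CpGs as H4C8. Others shared CpGs with each other, as TRQ-TTG3-1 and TRQ-TTG3-2 did, so these are not counts of independent genes. Differences between these lists and the cluster have no test here.

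Near-identical copies limit what exon values can say. The sources used here do not say how reads that fit several histone genes were placed. Positions with fractional coverage, left out because whole reads could not be recovered, were 79 of 1223 coding-exon positions of the members (6.46%) against 0.551% of exonic positions of the table. They made up 10.4% of H4, 6.36% of H3 and 3.85% of H2A exon positions, and 0% of H1 and H2B. The reason for fractional coverage was not tested. Upstream CpGs, outside the coding sequence that H4 genes share, had 90.5% in control and 92.7% in Mdivi-1 in H4C6. In H4C7 they had 93.6% and 90.04%. Whether reads of other H4 copies were placed in either gene was not tested.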

How the data were processed

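Methyl capture bisulfite libraries, 1 from DMSO and 1 from Mdivi-1 treated SH-SY5Y cells, were aligned with BSMAP to hg19, per the submitters' processing notes, which give no version. The table deposited by the authors gives a methylated fraction and a coverage for 2773807 positions. Deposited coverage was taken as estimated counts, since it is fractional at 10751 positions, which were left out. The control fractions deposited by the authors appeared to rest on read counts rescaled by 1.23, the ratio of median coverages (37 and 30 reads). That rescaling was inferred from the values and is stated in no source. Levels themselves were not multiplied by 1.23, as H1-1 differed by 1.71 points with deposited fractions and by 1.72 with recovered reads. Whole methylated reads were recovered by search, except at 44 control positions. Levels are means in percent over CpGs that reached 10 reads in each library. In the cluster 2727 positions gave 2426 CpGs, after 97 were left out for unrecovered counts and 204 for coverage. Gene symbols came from the deposited annotation, and RefSeq GRCh38.p14 gave synonyms and promoter sequences alone.

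Single CpGs were compared by Fisher's exact test with Benjamini-Hochberg adjustment over all CpGs, tested on simulated data (Python 3.11.15, NumPy 2.4.6, SciPy 1.17.1, Numba 0.67.0, pandas 2.3.3). Genes have no test with 1 library per group. Counting errors are binomial and cover counting alone, and PCR duplicates are not independent molecules. Named were the 8 members of largest gain and loss, the 5 of lowest and highest level, all linker genes, H2AC1 and H2BC1, members of pairs 30 points apart, the 5 CpGs of smallest p, and up to 3 genes of each list. Members and lists were chosen with earlier results of these data known.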

Additional observations from a re-analysis of the deposited data

How the results depend on the processing

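The count of 0 called CpGs held with the adjusted p alone, with a minimum of 20 reads and with deposited fractions. It was 0 at 10 points too, which follows from the adjusted p alone. The count of 0 genes past the rule of size held at 5 points, with a minimum of 20 reads, pooled reads and deposited fractions. That count also held without CpGs shared by members and over the transcribed part alone, settings chosen after seeing the data. A minimum of 10 CpGs removed no member, as the fewest was 23, so it could not alter the count. The cluster difference moved from 0.0372 points to 0.572 with pooled reads and to 0.218 with deposited fractions, and the gene body difference moved from −0.0190 to 1.15 points with pooled reads. With members over 80% left out, also chosen after seeing the data, the cluster difference was −0.000833 points, and 0.0639 with pooled reads. Excluding shared CpGs left 34 members, 26 of them (76.5%) under 10%. Of 84 values for 28 named genes, 14 in 8 genes changed sign, all of genes that passed no rule. In 5 the value left the 95% counting interval of the reported one, with pooled reads H3C11 to 1.54, H4C13 to 2.01, H4C2 to −0.441 and H4C9 to −3.47 points, and H4C6 to 1.30 points at 20 reads. Causes were not tested. Leaving out replicates was not possible with 1 library per group. No paired analysis was possible because each group has 1 library. A change under 20 points at a single CpG could not be called by the rule used. Larger differences could go uncalled too, as at 26196564 after H3C4, which differed by −30.8 points and was not called.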
